A study of Mus musculus with 6 samples.

Results

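Genes of the cell cycle were compared between 2 populations of F4/80+ cells from mouse bone marrow, sorted with and without signal from an eGFP reporter of Epor, the erythropoietin receptor gene. The set holds 44 genes picked by symbol from the 11489 genes of the expression table, 21 of DNA replication and the G1 to S transition and 23 of G2 and mitosis, and all 44 were found and tested. RNA was sequenced in 3 F4/80+ Epor-eGFP+ libraries and 3 F4/80+ Epor-eGFP- libraries, which the labels describe as erythroblastic island macrophages. F4/80, encoded by Adgre1, was part of both sorts, so the sort gates differ by the reporter alone. The sources used here give neither strain nor age, nor how many animals were used or how the reporter was built. No label ties the 3 libraries of a group to different animals, and the p-values therefore rest on library-to-library spread that may be technical. Libraries are called by the number, 0, 1 or 2, in their column name.

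Replication genes and mitosis genes are switched on in turn as a cell divides. Before S phase, E2F transcription factors turn on the genes that load and start the MCM helicase, make deoxynucleotides and copy DNA, and cyclin E with its kinase drives entry into S phase. Later, MuvB complexes with B-Myb and FoxM1 act through a short promoter element, the cell cycle genes homology region (CHR), often beside CCAAT boxes, on genes of the mitotic cyclins, kinases and spindle, and the anaphase promoting complex then destroys their proteins. In bone marrow, erythroblasts and promyelocytes are dividing precursors, while mature neutrophils have left the cycle.

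Promoters of the members differ between the sets in their letters, and a few are printed because the results below turn on these genes. RefSeq promoter windows (GRCm38.p6, 250 bases before to 50 bases after a gene's start) matched 38 of the 44 members, 18 of replication and 20 of mitosis. Those without a window were Mcm4, Gins2, Ccne2, Ccna2, Aurkb and Tpx2. Windows were searched on both strands for CCAAT, for the CHR letters TTTGAA or TTCGAA, and for the E2F site letters TTTCCCGC, TTTGGCGC or TTTCGCGC. Prc1, Mcm7 and Uhrf1 had more than 1 window, and a gene was counted if any of its windows matched. A CHR match was found for 15 of 20 mitosis members (75%) and 3 of 18 replication members (16.7%). It was found for 21.7% of the 27025 genes with a window. An E2F match was found for 8 of 18 replication members (44.4%) and 1 of 20 mitosis members, Cdk1, against 2.12% of all genes. CCAAT was found for 14 of these replication members (77.8%) and 17 of these mitosis members (85.0%), against 41.1% of all genes. Capitals mark every match in the printed windows, which read 5′ to 3′ along the gene. Mcm5 (chr8:75109259-75109558, plus strand) and Mcm6 (chr1:128359656-128359955, minus strand) stand for the helicase genes, and in both an E2F match on one strand overlaps another on the opposite strand. Ube2c (chr2:164769679-164769978, plus strand) and Aurka (chr2:172370521-172370820, minus strand) stand for mitosis genes that rose, and Mki67 (chr7:135716330-135716629, minus strand) for those that did not.
Mcm5: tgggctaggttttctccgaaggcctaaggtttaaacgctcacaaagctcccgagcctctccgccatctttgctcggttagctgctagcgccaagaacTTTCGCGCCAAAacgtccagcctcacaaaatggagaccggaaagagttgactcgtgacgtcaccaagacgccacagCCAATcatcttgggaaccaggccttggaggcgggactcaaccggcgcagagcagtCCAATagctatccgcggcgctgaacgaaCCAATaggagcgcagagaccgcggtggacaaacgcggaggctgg
Mcm6: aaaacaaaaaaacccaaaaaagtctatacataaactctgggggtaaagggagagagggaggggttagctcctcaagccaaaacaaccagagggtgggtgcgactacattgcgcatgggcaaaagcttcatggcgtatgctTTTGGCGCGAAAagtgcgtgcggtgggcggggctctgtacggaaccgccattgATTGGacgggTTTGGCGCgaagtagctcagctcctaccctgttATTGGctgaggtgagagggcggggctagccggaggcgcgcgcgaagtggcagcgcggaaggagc
Ube2c: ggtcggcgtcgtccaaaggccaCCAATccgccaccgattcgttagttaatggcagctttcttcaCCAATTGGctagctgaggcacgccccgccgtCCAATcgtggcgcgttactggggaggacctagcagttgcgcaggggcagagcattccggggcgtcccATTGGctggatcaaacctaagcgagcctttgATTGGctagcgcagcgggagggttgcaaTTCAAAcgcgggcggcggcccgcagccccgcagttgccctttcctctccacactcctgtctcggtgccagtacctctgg
Aurka: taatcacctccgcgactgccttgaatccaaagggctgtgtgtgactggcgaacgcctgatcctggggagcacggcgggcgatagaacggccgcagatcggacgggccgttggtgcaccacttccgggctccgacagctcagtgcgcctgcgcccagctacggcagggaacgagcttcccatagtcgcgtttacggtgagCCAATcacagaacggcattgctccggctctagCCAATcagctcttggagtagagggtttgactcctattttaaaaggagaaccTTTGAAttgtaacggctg
Mki67: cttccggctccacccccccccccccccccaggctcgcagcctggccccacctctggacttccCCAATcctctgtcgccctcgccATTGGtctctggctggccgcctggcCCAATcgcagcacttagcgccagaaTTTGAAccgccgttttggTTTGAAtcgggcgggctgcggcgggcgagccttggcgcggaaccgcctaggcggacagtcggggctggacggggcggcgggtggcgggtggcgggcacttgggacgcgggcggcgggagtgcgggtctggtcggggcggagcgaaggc
Each of these mitosis windows holds CCAAT and TTTGAA. Among mitosis members with a window, a CHR match lay in 7 of the 9 that rose in the fit without the replicate block described below and in 8 of the 11 that did not, or 77.8% and 72.7%. Of those that rose, Ccnb1 had no CHR match and Mad2l1 had neither CHR nor CCAAT. The Mad2l1 window ends at 66535270 on chromosome 6, before the gene's GENCODE start at 66535390. Its lack of matches may thus depend on the start used. Of those that did not rise, Birc5, Cenpe and Nusap1 had no CHR match. A match of letters is a description and not a shown binding site.

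Epor, the gene of the reporter, stood at 0.375, 0.414 and 0.217 FPKM without the reporter signal (libraries 0, 1 and 2, the order used throughout) and at 6.67, 3.43 and 7.78 FPKM with it. FPKM is fragments scaled by gene length and by library size, so levels of different genes can be set side by side. Of the defining macrophage genes, Adgre1 lay between 117 and 241 FPKM and Csf1r between 197 and 353 FPKM in all 6 libraries. Csf1r was lower with the reporter signal in each same-numbered pair. It passed as lower in the limma fit with the replicate block described below (adjusted p = 0.0145) and not without it. Others of the macrophage genes were far lower without the reporter signal, with Mertk at 0.567 to 1.24 FPKM against 18.3 to 57.9 FPKM and Cd163 at 2.66 to 4.34 FPKM against 58.2 to 267 FPKM. Transcripts of granulocytes were abundant as well, with S100a8 at 3322 to 7891 FPKM. In such bulk samples, fewer cells of a type and less RNA per cell cannot be told apart.

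All 44 members were expressed in both populations, and differences between the populations were small. The lowest value of any member was 3.78 FPKM, for Ccne2 in Epor-eGFP+ library 2, and the highest 234 FPKM, for Pcna in Epor-eGFP+ library 1. In Epor-eGFP+ cells, 10 of 23 mitosis members and 1 of 21 replication members passed as higher, and none passed as lower (limma on log2(FPKM + 1), adjusted p under 0.05 over 10964 genes). Over all genes tested, 22.7% passed as higher and 26.3% as lower, or 49.0% in all. The share that rose was 43.5% for mitosis members, above that background, and 4.76% for replication members, below it. In the wider lists described below that order was reversed, with 16.3% of other mitosis genes and 31.4% of other replication genes higher. The contrast between the sets thus depended on which genes were picked. The higher genes were 46.3% of all calls, and 59.5% after scaling to a common total. The median log2 fold change was 0.36 for mitosis members and 0.26 for replication members, against −0.01 for all genes tested. No test of the 2 sets against each other was made. Here a gene rose or fell where it passed in this fit, unless the block is named.

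The count of calls depended on how the libraries were matched. Same-numbered libraries shared their deviations, as described with the processing, and in the fit with the number as a replicate block 14 replication members passed as higher, 1 as lower and 6 not at all. With that block 19 mitosis members passed as higher and 4 not at all, while 28.0% of all genes tested passed as higher and 30.4% as lower. In either direction it was 58.4% of all genes. Both shares of members that rose, 66.7% and 82.6%, were then above the background. Higher values in Epor-eGFP+ for all 3 column numbers were found for 17 replication and 21 mitosis members, against 38.4% of all genes tested. The reverse, lower for all 3 numbers, held for Rrm2, Ccne2 and Slbp, against 40.5% of all genes. Groups that did not overlap were rarer, with Epor-eGFP+ above Epor-eGFP- in 1 replication and 10 mitosis members (28.4% of all genes) and below in 1 replication member, Ccne2 (31.9%).

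**Figure D1:**
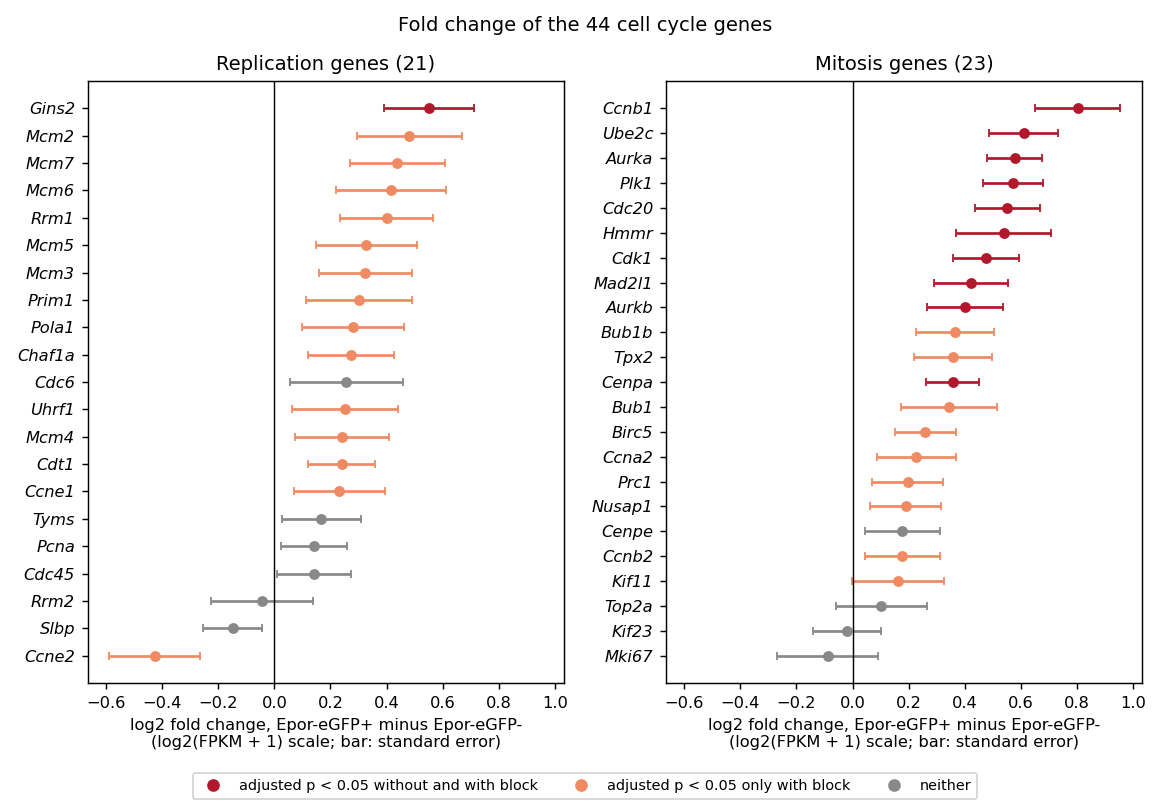
Log2 fold change (Epor-eGFP+ minus Epor-eGFP-, log2(FPKM + 1) scale, x axis) of the 21 replication genes and 23 mitosis genes, with bars for the standard error and colour for the test passed. Most points lie right of 0 in both panels, but 10 mitosis genes and 1 replication gene pass without the replicate block.

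In both groups library 1 was highest and library 2 lowest over most of the set. Library 1 held the highest value of its group for 20 of 21 replication and 23 of 23 mitosis members in Epor-eGFP- and for 17 and 23 in Epor-eGFP+. Library 2 held the lowest value for 21 replication and 18 mitosis members in Epor-eGFP-, and for 21 and 22 in Epor-eGFP+. The mean log2(FPKM + 1) over replication members was 5.14, 5.403 and 4.90 in the Epor-eGFP- group and 5.47, 5.54 and 5.13 in the Epor-eGFP+ libraries. Over mitosis members it was 5.20, 5.47 and 5.16 in Epor-eGFP- and 5.57, 5.84 and 5.44 in Epor-eGFP+. The groups overlap on both measures, since Epor-eGFP- library 1 exceeds Epor-eGFP+ library 2. Within a number, the replication mean was higher in Epor-eGFP+ by 0.33, 0.14 and 0.22 for numbers 0, 1 and 2, and the mitosis mean by 0.37, 0.36 and 0.28. The pairs numbered 0 thus differed by nearly the same in both sets, and those numbered 1 by less in the replication set.

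**Figure D2:**
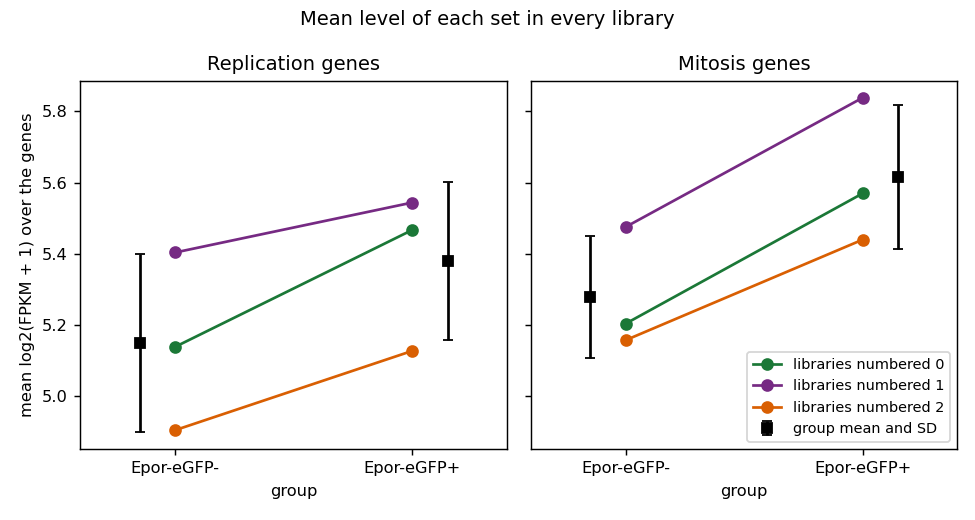
Mean log2(FPKM + 1) over the 21 replication and the 23 mitosis genes in each library (y axis, not starting at 0), with lines joining libraries of the same column number and black squares for the group mean and SD. Every line rises from Epor-eGFP- to Epor-eGFP+. The range between numbers is larger than each step between groups for replication genes and about as large as the steps for mitosis genes.

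Subunits of the replicative helicase did not pass singly without the block and all 6 passed with it. Mcm2 to Mcm7 form the ring that unwinds DNA at the fork, and their log2 fold changes lay between 0.24 for Mcm4 and 0.48 for Mcm2. Mcm2 was at 51.4, 62.0 and 39.3 FPKM in the Epor-eGFP- group and 76.4, 78.4 and 57.8 FPKM in Epor-eGFP+. Its highest Epor-eGFP- library thus lay above its lowest Epor-eGFP+ library, while each Epor-eGFP+ library exceeded its namesake (log2 fold change 0.48, SE 0.19, adjusted p = 0.0695, and 0.00462 with the replicate block). Mcm5 was at 67.6, 91.2 and 59.2 FPKM against 94.6, 102 and 75.4 FPKM in Epor-eGFP+ (0.33, SE 0.18, adjusted p = 0.171, and 0.0193 with the block). The most abundant subunit gene was Mcm7, at 90.8 ± 18.0 FPKM in Epor-eGFP- and 123 ± 19.2 in Epor-eGFP+ (SD, n = 3 per group, as for all means here). In the annotation, exons of Mcm7 overlap those of Cops6 and Ap4m1 on the other strand, so its level may include their reads. Without Epor-eGFP- library 1, the highest of its group, Mcm2, Mcm3, Mcm5, Mcm6 and Mcm7 passed without a block (adjusted p from 0.0282 for Mcm7 to 0.0487 for Mcm6).

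Gins2, a subunit of the GINS complex that activates the helicase, was the replication gene that rose. Its GRCm38 position is chromosome 8, 120578633 to 120589304, minus strand. Its values were 13.7, 19.4 and 13.1 FPKM in the Epor-eGFP- group and 24.3, 24.5 and 19.7 FPKM in Epor-eGFP+. The groups lie close but do not overlap (log2 fold change 0.55, SE 0.16, adjusted p = 0.0264). That call was lost without Epor-eGFP- library 0 (adjusted p = 0.0914), Epor-eGFP- library 2 (0.0804), Epor-eGFP+ library 0 (0.0897) or Epor-eGFP+ library 1 (0.0712). Exons of Gins2 also overlap those of Gse1 on the other strand in the annotation, and reads of overlapping genes cannot be told apart where counting ignores strand. Its partner Cdc45 was at 26.6 ± 3.41 against 29.4 ± 4.16 FPKM and passed neither test.

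Of the origin loading factors, Cdt1 passed with the block and Cdc6 did not. Cdc6 and Cdt1 bring the helicase to origins. Cdc6 was at 8.04, 10.5 and 6.16 FPKM in Epor-eGFP- and 11.6, 10.4 and 7.86 FPKM in Epor-eGFP+, so that the libraries numbered 1 were nearly equal. Cdt1 was at 38.0 ± 3.28 against 45.3 ± 6.28 FPKM (adjusted p = 0.136, and 0.0281 with the block). The genes of primase and polymerase alpha, which start each new strand, passed with the block alone, Prim1 at 0.30 (SE 0.19, adjusted p = 0.0319 with the block) and Pola1 at 0.28 (SE 0.18, 0.0147 with the block). The gene of the sliding clamp, Pcna, was the most abundant member, at 193, 225 and 177 FPKM against 227, 234 and 194 FPKM. The annotation holds processed pseudogenes of Pcna, so its estimate may share reads with a copy. Pcna was higher in Epor-eGFP+ for all 3 numbers, yet passed neither test (log2 fold change 0.14, SE 0.12, adjusted p = 0.349, and 0.113 with the block).

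Deoxynucleotide synthesis genes did not move as a group. Rrm1 and Rrm2 encode the large and small subunits of ribonucleotide reductase. Rrm1 was at 60.0, 75.1 and 51.9 FPKM in Epor-eGFP- and 81.7, 96.5 and 69.0 FPKM in Epor-eGFP+ (0.40, SE 0.17, adjusted p = 0.0856, and 0.00359 with the block). Rrm2 was at 93.7, 100.4 and 70.4 FPKM in Epor-eGFP- and 90.6, 99.0 and 67.4 FPKM in Epor-eGFP+. Each Epor-eGFP+ library of Rrm2 was slightly below its namesake (−0.04, SE 0.18, adjusted p = 0.860, and 0.487 with the block), and the sign of this value turned to 0.06 with a common total, 0.02 with a common upper quartile and 0.02 with quantile normalization. Tyms, thymidylate synthase, was at 12.99 ± 2.31 against 14.6 ± 1.78 FPKM.

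Among genes acting on chromatin behind the fork, Chaf1a and Uhrf1 were on the higher side and Slbp was not. Chaf1a, of the histone chaperone CAF-1, was at 22.2 ± 4.004 against 26.9 ± 3.69 FPKM (0.27, SE 0.15, adjusted p = 0.0171 with the block). Uhrf1, which guides maintenance of DNA methylation, was at 60.4 ± 12.8 against 71.9 ± 13.8 FPKM (0.25, SE 0.19, adjusted p = 0.0128 with the block). Slbp, which binds the stem-loop of histone mRNAs, was at 62.0, 64.1 and 56.4 FPKM in Epor-eGFP- and 58.9, 58.7 and 47.2 FPKM in Epor-eGFP+. Its values were lower in Epor-eGFP+ for each number, with a log2 fold change of −0.15 (SE 0.11) that passed neither test (adjusted p = 0.278, and 0.0830 with the block).

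The cyclin E genes had log2 fold changes of opposite sign. Ccne1 was at 11.4, 11.2 and 8.40 FPKM in the Epor-eGFP- group and 13.6, 13.7 and 9.78 FPKM in Epor-eGFP+ (0.23, SE 0.16, adjusted p = 0.274, and 0.0233 with the block). Ccne2 was at 6.03, 7.98 and 5.08 FPKM in Epor-eGFP- and at 4.49, 5.02 and 3.78 FPKM in Epor-eGFP+, with every Epor-eGFP+ library below every Epor-eGFP- library (−0.43, SE 0.16, adjusted p = 0.0646). With the block Ccne2 passed as lower (adjusted p = 0.0110), and without Epor-eGFP- library 2 it passed in the fit with no block (0.0346). The ratio of Ccne1 to Ccne2 was 1.90, 1.41 and 1.65 in the Epor-eGFP- libraries and 3.02, 2.73 and 2.59 in the Epor-eGFP+ libraries. The groups do not overlap on this ratio, whose mean was 1.68-fold higher in Epor-eGFP+ (exact two-sided permutation p = 0.1, the smallest that 3 against 3 libraries allow). It is 1 of 4 ratios computed after the values were seen, each with a p of 0.1 adjusted over the 4. Exons of Ccne2 overlap those of Ints8 on the other strand. Ccne1 lies on chromosome 7 from 38097984 to 38107534 and Ccne2 on chromosome 4 from 11191351 to 11204779.

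Cyclin B1 had the largest change of the 44 members, and its kinase rose too. Ccnb1 (chromosome 13, 100778650 to 100786570, minus strand) encodes cyclin B1, which with Cdk1 starts mitosis. It was at 26.6, 36.6 and 28.4 FPKM in the Epor-eGFP- group and 49.8, 63.8 and 48.1 FPKM in Epor-eGFP+. The lowest Epor-eGFP+ library lay well above the highest Epor-eGFP- library (log2 fold change 0.80, SE 0.15, adjusted p = 0.00549). Cdk1 rose from 30.9 ± 4.20 to 43.3 ± 4.52 FPKM (0.48, SE 0.12, adjusted p = 0.0154, but 0.0589 without Epor-eGFP- library 0 and 0.0505 without Epor-eGFP+ library 0). Ccnb2, which encodes cyclin B2, was at 62.0, 69.4 and 52.7 FPKM against 71.8, 77.2 and 59.5 FPKM, with overlapping groups (0.18, SE 0.13, adjusted p = 0.304, and 0.0321 with the block). Ccna2, of cyclin A2, was at 60.3, 73.4 and 58.2 FPKM against 71.0, 89.6 and 65.5 FPKM (0.23, SE 0.14, adjusted p = 0.217, and 0.0189 with the block). The ratio of Ccnb1 to Ccnb2 was 0.428, 0.527 and 0.539 in Epor-eGFP- and 0.693, 0.827 and 0.809 in Epor-eGFP+ (exact two-sided permutation p = 0.1, likewise the smallest possible), a ratio chosen after the values were seen. The annotation holds processed pseudogenes of both, so each estimate may share reads with a copy.

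Both partners of the anaphase promoting complex rose. Ube2c, which encodes a ubiquitin carrier of that complex, was at 86.4, 109 and 89.2 FPKM in Epor-eGFP- and 140.1, 164 and 132 FPKM in Epor-eGFP+ (0.61, SE 0.12, adjusted p = 0.00661). Cdc20, its activator, was at 49.8, 58.9 and 47.5 FPKM against 76.3, 86.0 and 68.2 FPKM (0.55, SE 0.12, adjusted p = 0.00806). Neither gene's groups overlap. Exons of Ube2c overlap Tnnc2 and those of Cdc20 overlap Elovl1 on the other strand.

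The kinases of spindle assembly and mitotic entry rose as well. Aurka, the centrosome kinase, was at 25.4, 29.4 and 24.2 FPKM in Epor-eGFP- and 39.0, 43.4 and 36.9 FPKM in Epor-eGFP+. Its spread within a group was small beside the step between groups (0.58, SE 0.10, adjusted p = 0.00378). Plk1, polo-like kinase 1, was at 36.7, 42.4 and 36.7 FPKM against 54.6, 66.2 and 53.2 FPKM (0.57, SE 0.11, adjusted p = 0.00531). Ccnb1, Cdc20, Aurka, Plk1 and Ube2c passed in each of 16 alternative settings without a block (adjusted p at most 0.0354) and in each of 7 with one.

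In the chromosomal passenger complex, which corrects chromosome attachment, Aurkb rose and its partner Birc5 passed with the block alone. Aurkb, the kinase of the complex, was at 46.8 ± 7.87 against 61.8 ± 6.25 FPKM (0.40, SE 0.13, adjusted p = 0.0434). The Aurkb call was lost without Epor-eGFP- library 0 (adjusted p = 0.125) or 2 (0.0971), without Epor-eGFP+ library 0 (0.0940) or 1 (0.116), and without both libraries numbered 2 (0.0818). Birc5, survivin, was at 70.2, 78.8 and 67.4 FPKM in Epor-eGFP- and 86.9, 97.6 and 75.9 FPKM in Epor-eGFP+, with 1 Epor-eGFP+ library inside the Epor-eGFP- range (0.26, SE 0.11, adjusted p = 0.0897, and 0.0158 with the block).

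Spindle checkpoint genes had log2 fold changes of 0.34 to 0.42. Mad2l1, which holds back anaphase until chromosomes are attached, was at 27.2, 32.7 and 25.03 FPKM in Epor-eGFP- and 36.8, 44.3 and 33.9 FPKM in Epor-eGFP+ (0.42, SE 0.13, adjusted p = 0.0343). The Mad2l1 call was lost without Epor-eGFP- library 0 (0.103) or 2 (0.1001), or without Epor-eGFP+ library 0 (0.0787) or 1 (0.0839). Bub1b was at 33.9 ± 4.73 against 44.02 ± 6.86 FPKM (0.37, SE 0.14, adjusted p = 0.0650, and 0.00408 with the block) and Bub1 at 11.6 ± 2.27 against 15.05 ± 2.92 FPKM (0.34, SE 0.17, adjusted p = 0.134, and 0.0107 with the block).

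Centromere, kinesin and spindle genes ran from −0.02 for Kif23 to 0.54 for Hmmr in log2 fold change. Cenpa, the centromeric histone, rose from 46.9 ± 2.31 to 60.5 ± 6.54 FPKM (0.36, SE 0.09, adjusted p = 0.0190), a call lost without Epor-eGFP- library 0 (0.0698) or 2 (0.0536) or Epor-eGFP+ library 0 (0.0677). Hmmr, which encodes a spindle-binding hyaluronan receptor, was at 13.7, 16.4 and 12.7 FPKM in Epor-eGFP- and 19.9, 26.9 and 17.3 FPKM in Epor-eGFP+ (0.54, SE 0.17, adjusted p = 0.0351). That of Hmmr was lost without Epor-eGFP- library 0 (0.102) or 2 (0.103), or without Epor-eGFP+ library 0 (0.0750) or 1 (0.0616). Tpx2, an activator of Aurora A, was at 31.2 ± 4.15 against 40.4 ± 6.49 FPKM (adjusted p = 0.0691, and 0.00516 with the block). Nusap1, Prc1 and the kinesin gene Kif11 had log2 fold changes of 0.19, 0.20 and 0.16 and passed with the block alone, while Cenpe, a kinetochore motor gene at 0.18, passed neither test. Kif23, a kinesin of cytokinesis, was at 21.0, 26.0 and 21.6 FPKM against 20.7, 26.1 and 20.9 FPKM, nearly the same in each pair. Its log2 fold change of −0.02 (SE 0.12, adjusted p = 0.908) turned to 0.08 with a common total and to 0.04 with a common upper quartile or quantile normalization.

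Top2a and Mki67, both often used to mark dividing cells, did not pass. Top2a, which untangles chromosomes, was at 107, 133 and 101 FPKM in Epor-eGFP- and 116, 149 and 103 FPKM in Epor-eGFP+ (0.10, SE 0.16, adjusted p = 0.624, and 0.175 with the block). Mki67, the gene of the Ki-67 antigen that coats mitotic chromosomes, was at 84.9, 104 and 76.2 FPKM against 78.6, 105 and 68.0 FPKM. Its groups overlap fully, with a log2 fold change of −0.09 (SE 0.18, adjusted p = 0.706, and 0.248 with the block) that turned to 0.01 with a common total. The ratio of Ccnb1 to Mki67 was 0.313, 0.351 and 0.373 in the Epor-eGFP- libraries and 0.634, 0.609 and 0.708 in the Epor-eGFP+ libraries. That ratio was 1.88-fold higher in Epor-eGFP+ with no overlap (exact two-sided permutation p = 0.1, which this design cannot lower), a description of genes picked after their values were seen.

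**Figure D3:**
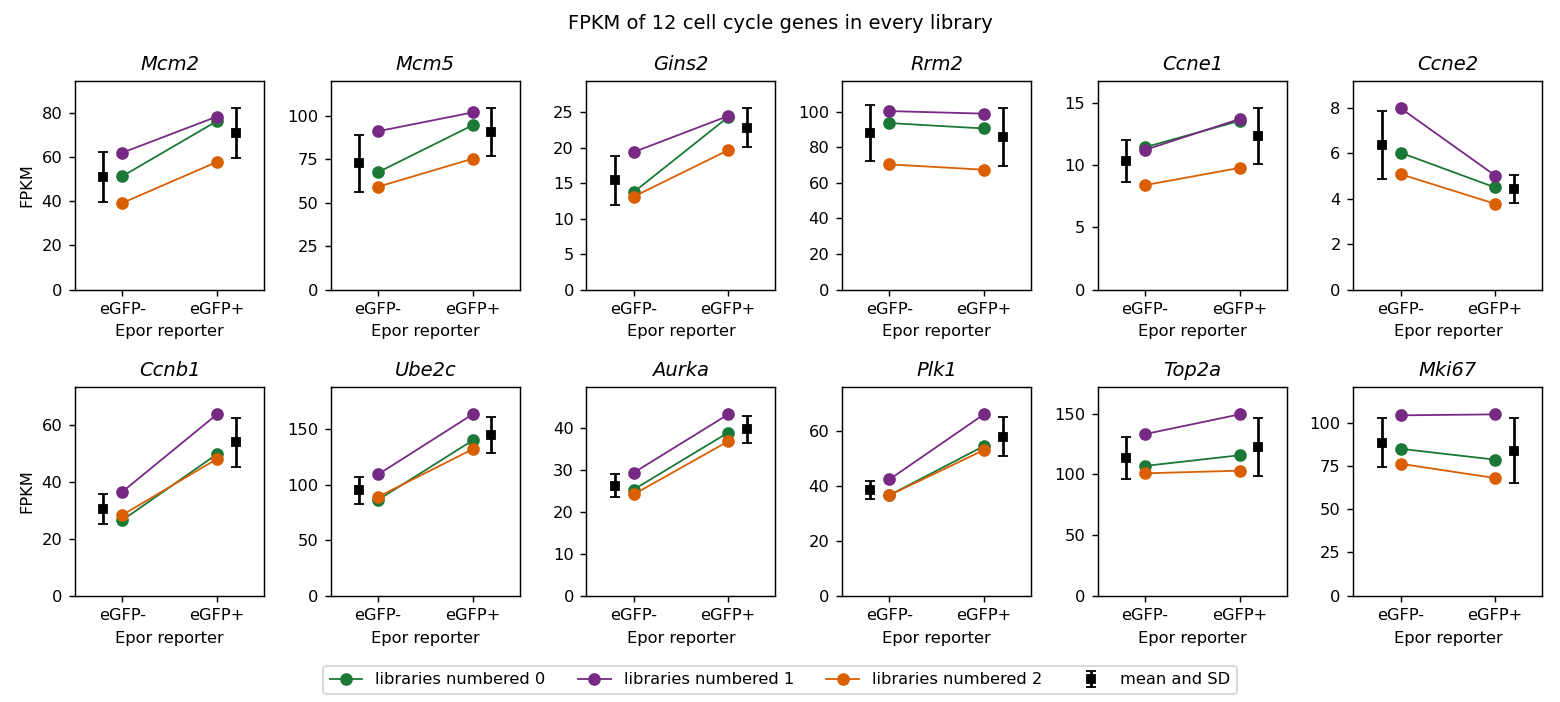
FPKM (y axis, from 0) of 12 replication and mitosis genes in each Epor-eGFP- and Epor-eGFP+ library, with lines joining libraries of the same column number and black squares for the mean and SD of 3 libraries. Ccnb1, Ube2c, Aurka and Plk1 separate the groups, Mcm2 and Mcm5 rise within each number but overlap, Ccne2 falls within each number, and Rrm2, Top2a and Mki67 lie nearly flat.

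As a count, leaving out 1 library moved the calls of both sets. Replication members that passed as higher numbered 7 without Epor-eGFP- library 1, 6 without Epor-eGFP+ library 2 and 0 without any other single library. Mitosis members that did so numbered 5 without Epor-eGFP- library 0 or Epor-eGFP+ library 0 and 6 without Epor-eGFP- library 2. Of all genes tested, 15.8% passed as higher without Epor-eGFP- library 0, 14.9% without Epor-eGFP+ library 0 and 17.9% without Epor-eGFP- library 2, against 22.7% with all libraries. That share was 21.0% without Epor-eGFP- library 1, 20.4% without Epor-eGFP+ library 1 and 22.6% without Epor-eGFP+ library 2. With the block, 1 replication and 8 mitosis members passed without both libraries numbered 0, where 10.2% of all genes did.

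Other genes of replication were taken from a wider list, chosen like the members with earlier results known. Of 70 such genes, 22 rose (31.4%, against 22.7% of all genes), 4 fell and 44 passed as neither, with a median log2 fold change of 0.24. With the block, 42 rose, 6 fell and 22 passed as neither. Orc1 and Orc2, of the origin recognition complex, had log2 fold changes of 0.72 (SE 0.17, adjusted p = 0.0135) and 0.61 (SE 0.12, adjusted p = 0.00588). Pole3, an accessory subunit of polymerase epsilon, rose from 16.9 ± 2.16 to 27.5 ± 1.52 FPKM (0.67, SE 0.10), and Recql4, a helicase of replication initiation, from 2.49 ± 0.458 to 4.31 ± 0.492 FPKM. The 4 that fell were Dna2, Dck, Pold4 and Mcmbp. Dna2, a nuclease and helicase of Okazaki fragment processing, was at 32.8, 34.1 and 40.3 FPKM in Epor-eGFP- and 17.3, 21.0 and 14.3 FPKM in Epor-eGFP+, the largest fall of the list (−0.998, SE 0.15, adjusted p = 0.00216). Dck, which phosphorylates salvaged deoxycytidine, fell from 47.8 ± 3.09 to 31.7 ± 2.098 FPKM (−0.58, SE 0.08, adjusted p = 0.00186). Mcmbp, a binding partner of the MCM ring, fell by 0.41 on the log2 scale while the MCM genes themselves did not fall, and its adjusted p was 0.0096 but 0.0546 with a common total and 0.0504 with the block and no libraries numbered 0. The Orc1 call was lost without Epor-eGFP- library 0 (0.0516). Pold4 (−0.49, adjusted p = 0.0474) passed in 8 of 16 other settings without a block. It did not pass without Epor-eGFP- library 0 (0.120) or 2 (0.125), without Epor-eGFP+ library 0 (0.121) or 1 (0.126), with a common total (0.0672), upper quartile (0.0549) or quantile normalization (0.0543), or with no variance trend (0.0525). The list held 6 calls higher without Epor-eGFP- library 0, 10 without Epor-eGFP- library 2, 8 without Epor-eGFP+ library 0 and 10 without Epor-eGFP+ library 1.

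Of 92 other mitosis genes, 15 rose (16.3%, against 22.7% of all genes), none fell and 77 passed as neither, with a median of 0.22. With the block, 47 rose, 1 fell and 44 passed as neither. Cks1b, a Cdk-binding protein gene, rose from 63.0 ± 10.2 to 97.3 ± 10.9 FPKM (0.62, SE 0.13, adjusted p = 0.00833), and Cenpw, a kinetochore gene, from 3.75 ± 0.641 to 6.24 ± 0.786 FPKM (0.61, SE 0.13, adjusted p = 0.00867). Sapcd2 (0.62, adjusted p = 0.0218) lost its call without Epor-eGFP- library 0 (0.0747) or 2 (0.0677) and without Epor-eGFP+ library 0 (0.0756) or 1 (0.0615). Nek2, a centrosome kinase gene (0.57, adjusted p = 0.0186), did so without Epor-eGFP- library 0 (0.0650) or 2 (0.0560) and without Epor-eGFP+ library 0 (0.0501). The list held 4 calls without Epor-eGFP- library 0 or 2, 29 without Epor-eGFP- library 1, 6 without Epor-eGFP+ library 0 and 7 without Epor-eGFP+ library 1. In both wider lists most genes lay on the higher side, 57 of 70 and 81 of 92, against 5365 of 10964 genes tested.

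**Figure D4:**
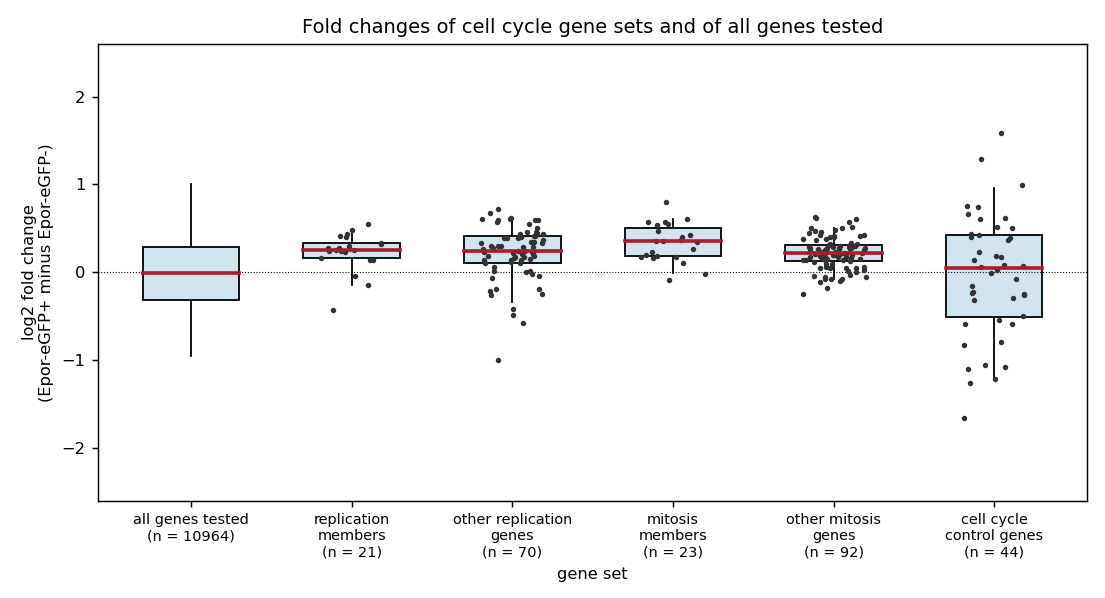
Log2 fold change (Epor-eGFP+ minus Epor-eGFP-, y axis) of the cell cycle gene sets beside all 10964 genes tested, with a red line at the median, a box from the 25th to the 75th percentile, a line from the 5th to the 95th and a point for each gene of the smaller sets. The replication and mitosis sets have medians of 0.22 to 0.36, and the control genes spread more widely about a median of 0.04.

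Control genes of the cycle spanned log2 fold changes of −1.66 to 1.58, against −0.43 to 0.80 for the members. Of 44 found among 47 listed, 15 rose and 15 fell (34.1% each, against 22.7% and 26.3% of all genes) and 14 passed as neither, with a median of 0.04. With the block, 16 rose, 18 fell and 10 passed as neither. Of the D-type cyclins, which bind Cdk4 and Cdk6 in G1, 2 rose and 1 fell. Ccnd1 was at 2.36, 3.69 and 1.76 FPKM in the Epor-eGFP- group and 9.08, 8.02 and 11.8 FPKM in Epor-eGFP+ (1.58, SE 0.22, adjusted p = 0.00173). Ccnd2 was at 11.4, 10.4 and 7.02 FPKM against 23.2, 22.2 and 28.6 FPKM (1.29, SE 0.18, adjusted p = 0.00180). Both were highest in Epor-eGFP+ library 2, where the replication and mitosis sets were lowest. Ccnd3, by far the most abundant of the 3, fell from 238 ± 9.89 to 159 ± 18.4 FPKM (−0.59, SE 0.10, adjusted p = 0.00341). Cdk4 rose from 87.4 ± 13.03 to 146 ± 13.4 FPKM (0.74, SE 0.12, adjusted p = 0.00335), whereas Cdk2, the partner of cyclin E, was at 43.4 ± 4.39 against 36.5 ± 3.19 FPKM and passed as lower with the block alone (adjusted p = 0.0139).

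All 4 Cdkn genes found in the control list, Cdkn1a, Cdkn1b, Cdkn2c and Cdkn2d, which encode inhibitors of cyclin kinases, fell. Cdkn1b (p27) was at 33.6, 28.7 and 34.1 FPKM in Epor-eGFP- and 18.0, 17.5 and 17.1 FPKM in Epor-eGFP+ (−0.83, SE 0.08, adjusted p = 0.000699). Cdkn1a (p21) was at 11.6, 11.99 and 11.3 FPKM against 6.197, 6.86 and 5.89 FPKM (−0.79, SE 0.08, adjusted p = 0.000694). Cdkn2d (p19) was at 83.7, 75.5 and 86.6 FPKM against 39.0, 39.2 and 36.9 FPKM (−1.07, SE 0.08, adjusted p = 0.000330). Within each group these 3 genes varied little between libraries. Cdkn2c (p18) fell from 35.2 ± 2.998 to 27.9 ± 0.957 FPKM (−0.32, adjusted p = 0.0170), a call lost without Epor-eGFP+ library 0 (0.0706), without both libraries numbered 2 (0.0666) and with a common total (0.0934).

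Genes known to restrain the cycle went in both directions. Btg1 and Btg2, antiproliferative genes, fell by 1.26 and by 1.05 on the log2 scale, and Mxd1, an antagonist of Myc, fell from 46.2 ± 8.74 to 13.8 ± 1.90 FPKM (−1.66, SE 0.15, adjusted p = 0.000546). Myc was at 22.9, 25.6 and 14.1 FPKM in Epor-eGFP- and 48.5, 41.3 and 35.1 FPKM in Epor-eGFP+ (0.99, SE 0.22, adjusted p = 0.0105). Rb1, the retinoblastoma gene, and its relative Rbl2 fell by 0.54 and by 0.50, while Rbl1 (−0.24) passed as lower with the block alone. Wee1, an inhibitory kinase of Cdk1, and Chek2, a checkpoint kinase, rose by 0.51 and 0.42 on the log2 scale. The Wee1 call was lost without Epor-eGFP- library 0 (0.0673) or Epor-eGFP+ library 0 (0.0575) or 1 (0.0590), and that of Chek2 without Epor-eGFP- library 0 (0.0633), Epor-eGFP+ library 0 (0.0511) or both libraries numbered 2 (0.0581). Of the E2F genes, E2f2 fell from 67.6 ± 4.95 to 28.5 ± 1.63 FPKM (−1.22, SE 0.08, adjusted p = 0.000316) and E2f7 fell by 0.58. E2f3 (0.44), E2f4 (0.37), E2f5 (0.60) and E2f6 (0.40) rose. The E2f6 call was lost without Epor-eGFP- library 0 (0.0638) or 2 (0.0505) or Epor-eGFP+ library 0 (0.0660). E2f8 (−0.23) passed as lower with the block alone. E2f1, a classic activator of replication genes, was at 20.1 ± 2.94 against 17.9 ± 2.07 FPKM and passed neither test. Mybl2, the B-Myb gene, rose from 15.1 ± 3.27 to 23.6 ± 3.80 FPKM (0.62, SE 0.17, adjusted p = 0.0231), a call lost without Epor-eGFP- library 0 (0.0703) or 2 (0.0619) and without Epor-eGFP+ library 0 (0.0733) or 1 (0.0642). Foxm1 was at 24.7 ± 4.11 against 23.3 ± 3.30 FPKM and passed neither test. Skp2, which targets p27 for destruction, rose from 5.38 ± 0.206 to 9.11 ± 0.798 FPKM (0.66, SE 0.09, adjusted p = 0.00144).

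**Figure D5:**
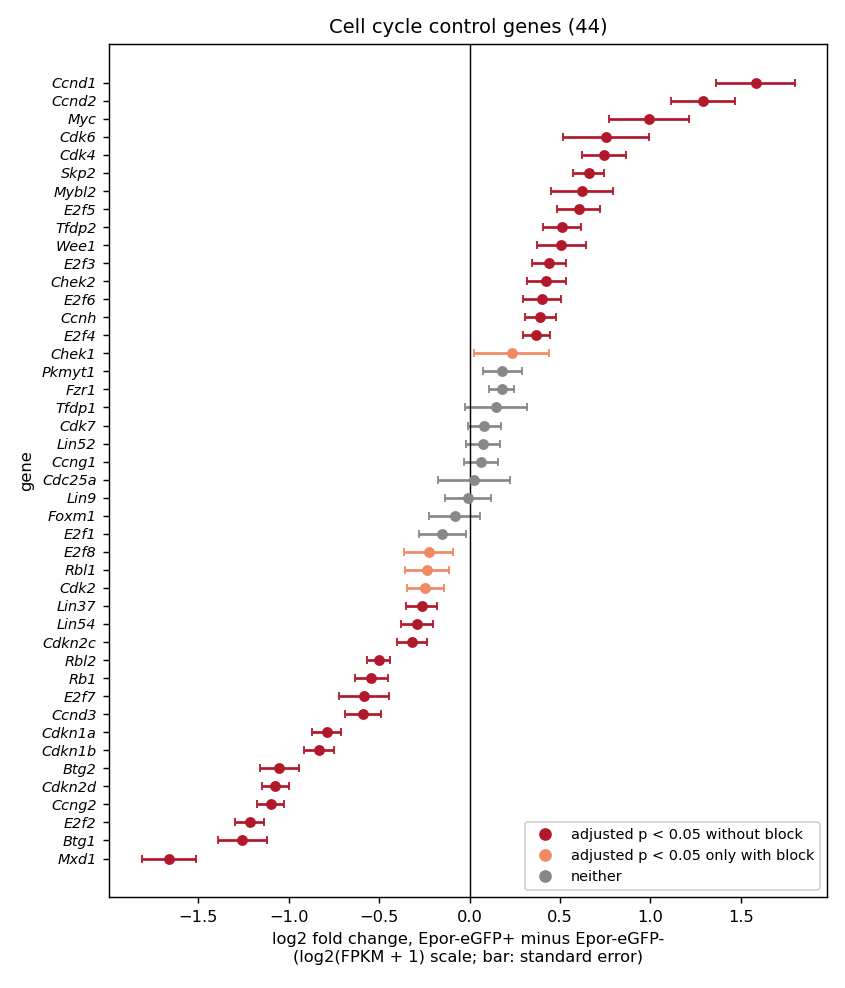
Log2 fold change (Epor-eGFP+ minus Epor-eGFP-, x axis) of 44 cell cycle control genes with standard errors, coloured by the test passed. Ccnd1, Ccnd2, Myc and Cdk4 lie at the right and Mxd1, Btg1, E2f2, Ccng2 and Cdkn2d at the left, with 15 genes passing in each direction.

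Markers of several cell types also differed between the groups, where 22.7% of all genes tested rose and 26.3% fell. Of 8 granulocyte precursor genes, 6 rose and none fell (with the block, Cebpe passed as lower), and their summed FPKM ran from 1962 to 3522 in Epor-eGFP- and from 8412 to 10522 in Epor-eGFP+. Like the replication and mitosis sets, that sum peaked in library 1 and was smallest in library 2 of both groups. Within Epor-eGFP+ the sums of mature neutrophil and monocyte genes, given below, also peaked in library 1 and were smallest in library 2. Within Epor-eGFP- the sum of stem and progenitor genes did so too. Of 20 erythroid genes found among 22 listed, 14 rose and none fell, with a sum of 93.8 to 801 FPKM in Epor-eGFP- and 648 to 1988 in Epor-eGFP+, highest in library 2 and lowest in library 1 of both groups. Globin genes carry much of that sum, and the mean log2(FPKM + 1) of the list was 2.003, 1.56 and 2.50 in Epor-eGFP- and 4.94, 4.07 and 4.82 in Epor-eGFP+, there highest in library 0. Of 9 mature neutrophil genes found among 10 listed, 7 fell and none rose, and the sum was 14174 to 22248 against 8438 to 11519 FPKM. All 9 monocyte genes fell (3052 to 4270 against 1253 to 1570 FPKM). Of 15 macrophage genes, 11 rose, with a sum of 656 to 903 FPKM in Epor-eGFP- and 2348 to 7691 in Epor-eGFP+, highest in library 2 and lowest in library 1 of Epor-eGFP+, the reverse of the mitosis set. Of 12 B lineage genes found among 13 listed, Vpreb1, Igll1 and Jchain rose and Dntt fell, and the sums overlapped (148 to 428 against 262 to 327 FPKM). Of 10 stem and progenitor genes, Myb and Cdk6 rose and Flt3, Gata2 and Meis1 fell, and the sums overlapped too (124 to 216 against 179 to 240 FPKM). Cdk6 is also one of the control genes. The shares that rose, 25% of B lineage and 20% of stem and progenitor genes, were near that of all genes. No marker of these lists was at 0 in any library. The part of each cell type in the cell cycle differences was not tested.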

How the data were processed

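RNA of F4/80+ bone marrow cells was sequenced in 6 libraries, 3 per group, made with a TruSeq RNA kit per the labels' protocols. The deposited FPKM values come from a single table with 1 column per library. The submitters' processing notes name TopHat2 (2.1.0), Cufflinks (2.2.1), Trimmomatic (0.35) and bcl2fastq (2.19.1.403), and the build mm10, with no role or order. For annotation, filters, strand setting and library scaling, the answer is not given in the sources used here. FPKM holds no counts, so depth is unknown, and total FPKM ran from 467176 to 519650.

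The 10964 genes averaging 1 FPKM or more were fitted with limma 3.58.1 in R 4.3.3 on log2(FPKM + 1), group as the only term, eBayes with a mean-variance trend, two-sided, and p-values adjusted by Benjamini-Hochberg over all of them (threshold 0.05). Fold changes on this scale understate changes of low genes. Columns carry the numbers 0 to 2 and the labels 1 to 3, so columns were assigned to groups only. Deviations from group means correlated across genes at 0.25, 0.38 and 0.35 for the same number and at −0.39 to 0.07 otherwise. Correlations above 0.1 in all 3 pairs were taken as pairing, and a fit blocked on column number stands beside the unblocked one. The pairing was read from the same expression values that were then fitted. The blocked p-values take it as given and do not count that choice. No label says what the numbers mark.

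The members, the gene lists, the tests and the alternatives were chosen with earlier results of these data known. Genes given in every library were up to 6 called members with the largest change in each set (1 of replication, since no other was called) and 16 chosen genes, and others were added after their values were seen. Of the wider lists, up to 4 called genes per direction are named, and any control gene may be. Exons of 10 members overlap another protein-coding gene and 4 members have a named processed pseudogene (GENCODE vM21), which Cufflinks may not separate. The fit was tested on simulated data before use. At a simulated log2 change of 0.5, it recovered 36% of changed genes without the block and 2% with it. The simulated libraries were independent, so the block fit was not tested on paired libraries. In the simulation 166 of 10964 genes passed without the block and 140 with it, against 49.0% and 58.4% in the data. The adjusted threshold is stricter where fewer genes change, so these recovery rates do not carry over to the data.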

Additional observations from a re-analysis of the deposited data

How the results depend on the processing

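The medians of both sets stayed positive in every setting tried, at 0.14 to 0.40 for replication and 0.24 to 0.46 for mitosis members without a block, and 0.23 to 0.35 and 0.31 to 0.46 with one. The fits joining a block to a scaling or to 2 pairs were added after seeing the data. The replication members called higher (1) numbered 3 with a common total, 0 to 7 leaving out 1 library, 6 without both libraries numbered 2 and 14 with the replicate block. With the block they numbered 17 with a common total, 16 with a common upper quartile or quantile normalization, and 12 or 14 without the libraries numbered 1 or 2. Of all genes tested, 33.8%, 32.4% and 27.7% passed as higher with the block and a common total, upper quartile or quantile normalization. With the block and without the libraries numbered 1 or 2, that share was 24.5% or 25.1%. With no block it was 27.8% with a common total and 20.4% without both libraries numbered 2. Replication members called lower (0) numbered 0 to 1 leaving out 1 library, and 1, Ccne2, with quantile normalization and with the block, alone, with each scaling, or without the libraries numbered 1 or 2. Mitosis members called higher (10) numbered 5 to 13 leaving out 1 library, 19 with the block, 20 with the block and each scaling, and 16 with the block without the libraries numbered 2. Other replication genes called higher (22) numbered 6 to 31 leaving out 1 library, 42 with the block, 52, 51 and 46 with the block and a common total, upper quartile or quantiles, and 12 and 35 without the libraries numbered 0 or 2. Those called lower (4) numbered 2 with a common total. Other mitosis genes called higher (15) numbered 4 to 29 leaving out 1 library, 47 with the block, 64, 64 and 50 with those scalings, and 9, 36 and 43 without the libraries numbered 0, 1 or 2, and 1 was called lower with the block, alone or with quantile normalization. Control genes called higher (15) numbered 6, all genes higher (2489) 1113 and all genes lower (2883) 1449 with the block without the libraries numbered 0. Leaving out 1 library, all genes higher numbered 1634 to 2479. The causes were not tested.

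Of the members, 4 near 0 changed sign. With a common total, upper quartile or quantile normalization, with or without the block, Rrm2 (−0.04) was at 0.057, 0.0186 and 0.019, and Kif23 (−0.02) at 0.0777, 0.0406 and 0.0392. With a common total, with or without the block, Mki67 (−0.09) was at 0.0116. Leaving out 1 library, Rrm2 ran from −0.195 to 0.118, Kif23 from −0.125 to 0.0728, Mki67 from −0.26 to 0.049 and Top2a (0.10) from −0.0471 to 0.221. The other 40 members kept their direction in all 23 settings. With values of 3 libraries per group and no read counts, differences of the size of most replication members lay within the unpaired spread between libraries of a group, although 17 of 21 were higher in all 3 same-numbered pairs and 14 passed with the block.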
